A study of Curcuma longa with 2 samples.

Results

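The miRNAs described here carry the names miR528, miR5179, miR444 and miR1432, together with PC-3p-15195_98, a predicted sequence that lies opposite miR528 in its hairpin. They were taken by name from a table of miRNAs in nanoparticles of turmeric (Curcuma longa) root, and 5 distinct sequences on 7 lines met the rule, of 186 distinct sequences in all. All 5 had reads, as did 167 sequences of the whole table. The study has 2 samples of 1 group, Turmeric ELN 1 (library 1) and Turmeric ELN 2 (library 2), each made from total RNA of turmeric nanoparticles with no treatment, control or second tissue named. The labels do not state whether particles were isolated separately for each sample, and the spread over samples may be technical. Listed reads summed to 96386 in library 1 and 72196 in library 2. These are sums over a list of miRNA entries and not the depth of sequencing. RNA inside the particles and RNA that was recovered along with them cannot be told apart.

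Plant miRNAs are cut as a short duplex from the stem of a hairpin transcript, and usually 1 strand is kept to guide the cleavage of matching mRNAs. miR528, miR444 and miR1432 are known mainly from grasses and other monocots, the lineage to which turmeric belongs. In grasses miR528 acts on mRNAs of copper-containing proteins such as ascorbate oxidase and laccase. miR5179 acts in orchids on DEFICIENS-like MADS-box genes of flower development, and miR444 acts in rice on MADS-box genes linked to nitrate signalling and tillering. miR1432 acts in rice on an acyl-CoA thioesterase gene and on genes of calcium-binding EF-hand proteins.

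The 5 sequences are shown as the deposited table gives them, in DNA letters from 5′ to 3′. Capitals mark the seed, bases 2 to 8. Their seeds differ from one another, and no other sequence of the table shared a seed with any of them or an identical run of 12 bases.
miR528: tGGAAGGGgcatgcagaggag
PC-3p-15195_98: cCTGTGCCtgccctttccact
miR5179: tTTTGCTCaagaccgcgcaac
miR1432: tGTCCAGGagagatgacaccg
miR444: cAAGTTATgcaattgctgcct

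All 5 were 21 nt long, a length that 79 of the other 162 sequences with reads also had (48.8%). The first base was T, read as U in RNA, in miR528, miR5179 and miR1432, and C in PC-3p-15195_98 and miR444. Their GC content ran from 42.9% in miR444 to 61.9% in miR528 and PC-3p-15195_98, with a median of 57.1%, against a median of 50% over the other sequences.

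miR528 was the most abundant of the 5, with 1002 reads in library 1 and 762 in library 2. Its share of the listed reads was 1.04% for library 1 (95% Clopper-Pearson interval 0.976% to 1.11%) and 1.06% for library 2 (0.982% to 1.13%). The mean was 1.05% ± 0.011 (SD, n = 2), and the intervals of the libraries overlapped. Such intervals hold the counting error of reads alone. Without molecular identifiers several reads can stem from 1 molecule, so the intervals may be too narrow even for that error. miR5179 followed, with 581 reads in library 1, 410 in library 2 and a mean share of 0.585% ± 0.025 (SD, n = 2). It was listed at 2 places with 290.5 and 205 reads at each, and the sum is used here because the fractional value points to reads divided between lines.

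The other 3 sequences were far lower. PC-3p-15195_98, the opposite strand of miR528, had 52 reads in each library, which was 0.0539% of library 1 and 0.0720% of library 2. miR1432 had 27 reads in library 1, 24 in library 2 and a mean share of 0.0306% ± 0.0037 (SD, n = 2). miR444 had 32 reads in library 1, 18 in library 2 and a mean share of 0.0291% ± 0.0058 (SD, n = 2). Its reads were listed as 16 and 9 at each of 2 places, whole numbers that do not show whether reads were divided. Each of the 3 had overlapping intervals between the libraries.

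**Figure D1:**
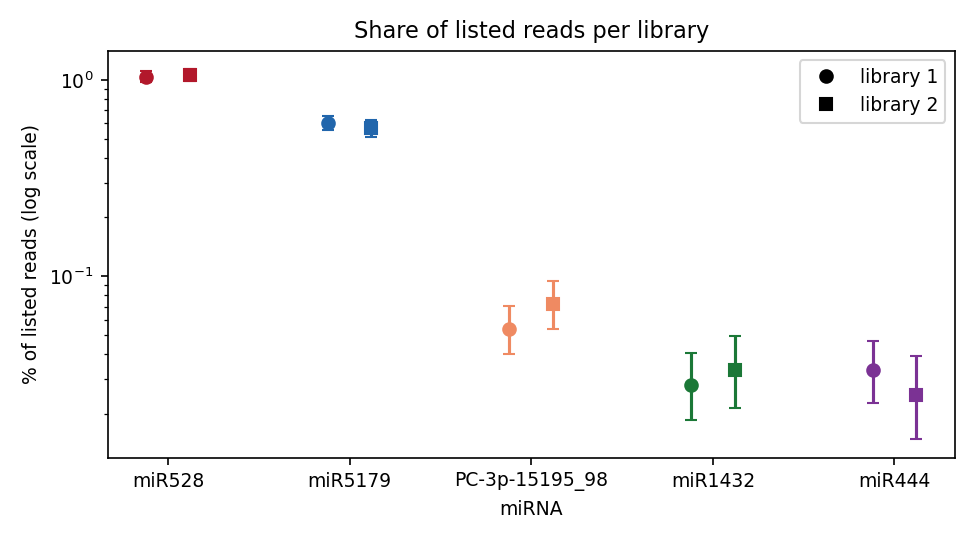
Percent of listed reads on a log scale for each of the 5 sequences, circles for library 1 and squares for library 2, with 95% Clopper-Pearson intervals for counting error. miR528 and miR5179 lie between 0.568% and 1.06%, and the other 3 sequences lie below 0.1%.

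Together the 5 sequences reached 1.76% of library 1 and 1.75% of library 2. miR528 alone made up 59.1% of that sum in library 1 and 60.2% in library 2. miR528 exceeded miR5179 by 1.72-fold in library 1 and 1.86-fold in library 2. A single listed line per sequence gave 3.45-fold and 3.72-fold, although the fractional reads of miR5179 point to division between lines. miR528 and miR5179 exceeded miR444 and miR1432 in both libraries, by 17.1-fold to 42.3-fold, and by 8.54-fold to 84.7-fold with a single line. miR444 was higher than miR1432 in library 1 and lower in library 2, so these families were not ordered. With a single line per sequence, miR1432 exceeded miR444 by 1.69-fold in library 1 and 2.67-fold in library 2. These ratios carry no p, because the smallest two-sided p of an exact permutation of signs over 2 libraries is 0.5.

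The 4 families differed in how closely they matched a registered miRNA. miR528 and miR5179 were identical over all 21 bases to the registered rice forms, and all of their listed reads lay on that 1 form. Each had only 1 listed sequence, as did 17 of the 43 families with reads, miR1432 and miR444 among them. The 2 identical sequences held 93.0% ± 0.62 (SD, n = 2) of the reads of the 5. Among the other 162 sequences, 16 were identical to a registered form by the first name listed, with 20.6% ± 0.17 (SD, n = 2) of the reads of those sequences. For miR528 the table names 8 registered hairpins of 7 species, among them rice, maize, sorghum and Brachypodium. It names 2 for miR5179, of rice and Brachypodium, 2 for miR444, both of rice, and 1 for miR1432, of Brachypodium.

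miR1432 and miR444 carried names that mark an unregistered arm of a registered hairpin, but each was a shifted form on the arm that holds the registered sequence. Placed on the Brachypodium hairpin, the turmeric miR1432 read began 2 bases before the registered sequence and overlapped it by 19 of its 22 bases, with 1 substitution, T4C. Substitutions give the registered hairpin's base first, then the position counted from 1 at the 5′ end of the turmeric sequence, then the turmeric base. The miR444 read began 7 bases before the registered rice sequence, shared 14 bases with it and carried G12A. The seed therefore differed from that of the registered form in both. Registered forms are shown with the seed in capitals, for comparison with the turmeric forms above.
miR1432, Brachypodium: tTCAGGAGagatgacaccgaca
miR444e, rice: tGCAGTTGctgcctcaagctt
miR528-3p, rice: cCTGTGCTtgcctcttccatt

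The turmeric sequence at the registered positions could be read from the listed hairpins. For miR1432 it differed from the 22-base Brachypodium form by T2C, A20G, C21G and A22T, with positions counted from the 5′ end of the registered form. For miR444 the 1 place that extends far enough differed from the rice form by G5A and T21G. Neither of these unshifted sequences was listed with reads.

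PC-3p-15195_98 has no registered name in the table, but the rice miR528 hairpin quoted there marks a 3′-arm sequence of the same length at the matching place. The turmeric sequence started at the same base as that rice form and differed from it at 4 of 21 positions, T8C, T13C, C14T and T20C. In the next line capitals mark the substituted bases.
PC-3p-15195_98: cctgtgcCtgccCTttccaCt

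The turmeric miR528 hairpin held both strands, and the structure listed for it forms a duplex between them. It is 100 nt long with a listed free energy of -57.7 kcal/mol, and its arms stand in capitals in the next line, miR528 first.
miR528 hairpin: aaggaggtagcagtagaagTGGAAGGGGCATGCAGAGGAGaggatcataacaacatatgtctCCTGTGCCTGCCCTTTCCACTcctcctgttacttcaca
miR528 spans bases 20 to 40 and PC-3p-15195_98 bases 63 to 83, with 22 nt between them. In the listed structure 17 pairs join the strands, 1 of them a G-U pair, and each strand extends 2 nt beyond its partner at its 3′ end. Bases 12 and 16 of miR528 are unpaired. Refolded with RNAfold, the turmeric hairpin again had 17 pairs between the strands, as did the 88-nt rice hairpin, in which 44 nt separate them.

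Most reads of this hairpin came from the 5′ arm. In library 1, PC-3p-15195_98 made up 4.93% of the reads of both arms (95% Clopper-Pearson interval 3.71% to 6.42%), and in library 2 it made up 6.39% (4.81% to 8.29%). miR528 was thus 19.3-fold higher than its opposite strand in library 1 and 14.7-fold higher in library 2, and the 2 intervals overlapped. Over both libraries the lesser arm held 5.57% of the reads. The same value had a median of 14.0% over the 24 other hairpins of at least 50 nt with reads on both arms, with 10 below miR528 and 14 above it. Some of these hairpins share a sequence, so they are not independent. They also include hairpins with miR2916, a possible ribosomal RNA fragment, at 37.4% and 43.3%, which stand above miR528. The full range over all 25 ran from 0.0483% to 49.4%.

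**Figure D2:**
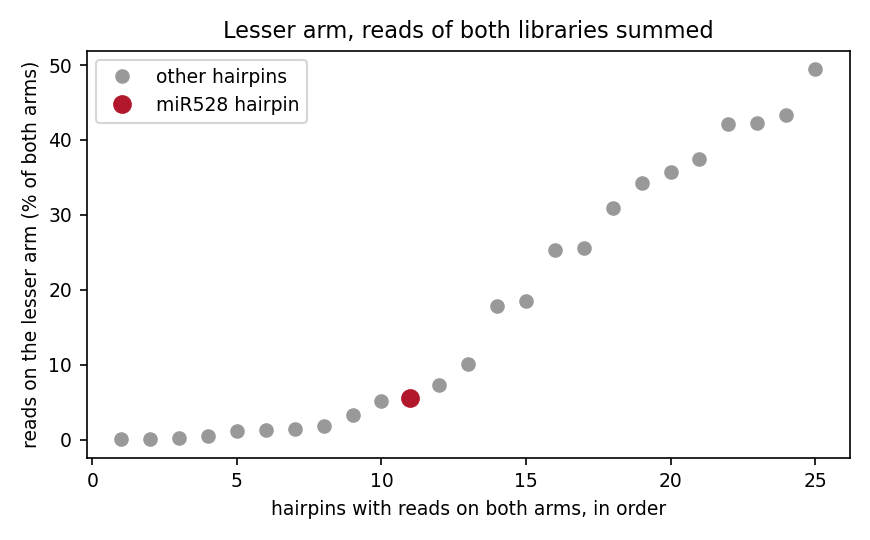
Reads on the lesser arm as percent of the reads of both arms, libraries summed, for the 25 listed hairpins of at least 50 nt with reads on both arms, ordered from low to high. The miR528 hairpin, in red, stands 11th at 5.57%.

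Of the structure criteria in the table's legend, 4 were checked on each line, a length of at least 50 nt (counted from the hairpin letters), a free energy of at most -15 kcal/mol, at least 16 pairs and at least 12 paired bases in the mature sequence. They were met by 4 of the 7 lines of the 5 sequences (57.1%), against 67.6% of the other 244 lines with a hairpin. The table also states a length of its own that is shorter on each of these lines. By that value 3 of the 7 (42.9%) and 66.8% of the other lines met all 4. The lines of miR528 and PC-3p-15195_98 list the same hairpin, so these are counts of lines and not of separate hairpins. miR528, PC-3p-15195_98 and miR1432 met all 4. The criteria are those of the legend, so a predicted entry such as PC-3p-15195_98 may have been listed only because it met them. The miR1432 hairpin is 95 nt long with a free energy of -54.1 kcal/mol and pairs 20 of the 21 mature bases. The bases that pair with the mature sequence span 68 to 88, and no other entry of the table lies in this hairpin.
miR1432 hairpin: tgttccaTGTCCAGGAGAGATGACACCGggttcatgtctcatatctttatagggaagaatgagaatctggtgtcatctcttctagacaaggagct

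For miR5179, an exact match, the listed hairpins stop where the rice hairpin continues toward its opposite arm. In the 224-nt rice hairpin the mature sequence begins 10 bases from the 5′ end and 193 bases follow it. Both turmeric lines end 1 base after the mature sequence, and the table assigns it to the 3′ arm.
miR5179, first place: catggTTTTGCTCAAGACCGCGCAACa
miR5179, second place: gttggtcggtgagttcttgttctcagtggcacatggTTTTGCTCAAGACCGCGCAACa
The first is 27 nt long with a free energy of -5.6 kcal/mol and met none of the 4 criteria. All 27 of its bases recur in the second, which is 58 nt long, has -15.2 kcal/mol and met all 4 by its letters. Only 1 base follows the mature sequence there, so meeting the criteria does not rest on the arm that follows it in rice. The length that the table states is 16 for both places, which is below 50. A mature sequence within 1 base of the hairpin end on its own side was found on 3 of the 7 lines (42.9%), against 57 of the other 244 (23.4%).

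miR444 was assigned to the 3′ arm at 1 place and to the 5′ arm at the other, although its sequence is the same at both.
miR444, first place: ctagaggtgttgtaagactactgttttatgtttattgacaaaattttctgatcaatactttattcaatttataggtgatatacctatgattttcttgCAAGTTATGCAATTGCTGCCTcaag
miR444, second place: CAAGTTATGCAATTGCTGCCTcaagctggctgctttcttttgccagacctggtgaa
The first, of 122 nt and -27 kcal/mol, met 3 criteria and paired 11 mature bases. The second, of 56 nt and -12.5 kcal/mol, begins with the mature sequence and met only the length criterion, and not that one by its stated length of 19. In the 140-nt rice hairpin the registered sequence lies toward the 3′ end, from base 99 to 119.

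**Figure D3:**
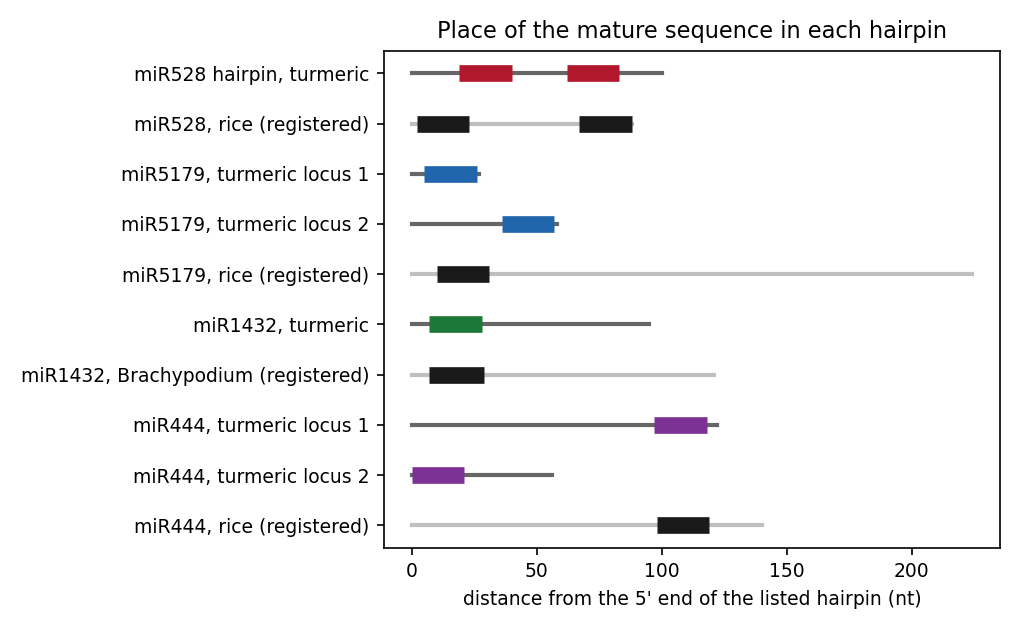
Listed hairpins as lines, from their 5′ end in nt, with mature sequences as blocks, turmeric in colour above the registered rice or Brachypodium hairpin in black and grey. The turmeric miR528 hairpin carries both arms, the miR5179 lines end 1 base after the mature sequence, and miR444 sits at opposite ends of its 2 hairpins.

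**Figure D4:**
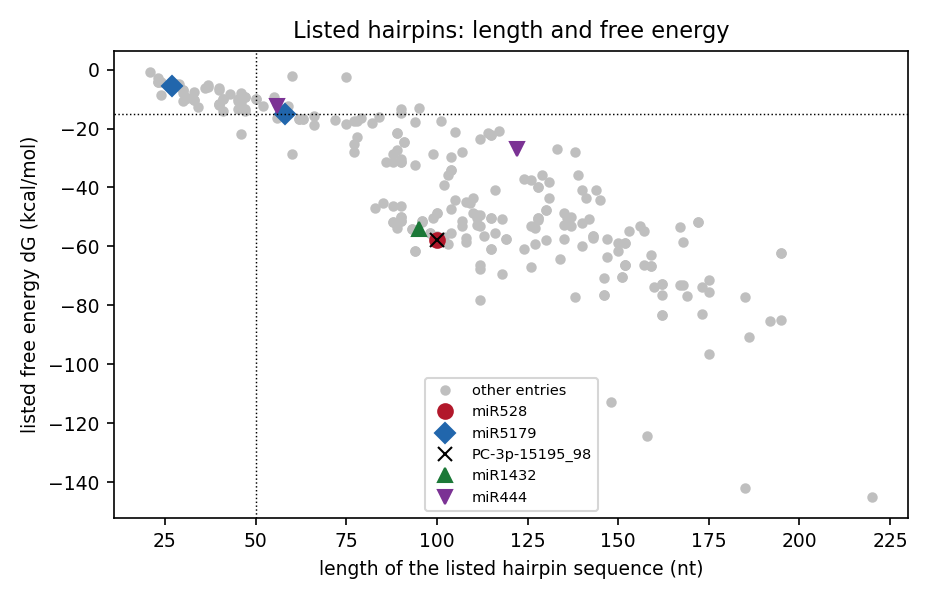
Listed free energy in kcal/mol against the length of the listed hairpin sequence in nt, counted from its letters, for the 251 lines with a hairpin, other entries in grey, with dotted lines at 50 nt and -15 kcal/mol. miR528, PC-3p-15195_98 (cross on the same point) and miR1432 lie at -54.1 to -57.7 kcal/mol, and 1 line each of miR5179 and miR444 lies above -15 kcal/mol.

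The table places the hairpins on contigs of a turmeric assembly that it does not name, and the annotation available belongs to another assembly, so no gene, exon or intron is given. miR528 was placed on the minus strand of contig WXZB01032938.1 from 2801 to 2900. The line of PC-3p-15195_98 gives 2715 to 2814 on the same strand of that contig, 86 bases lower, although the hairpin letters and structure of both lines are identical. Places so listed would overlap by 14 bases, but the first and last 14 bases of the hairpin differ, so at least 1 of the listed positions cannot be right. miR1432 was placed on the plus strand of contig WXZB01188071.1 from 615 to 709. miR5179 was placed on the plus strands of contig WXZB01001192.1 from 5354 to 5380 and contig WXZB01015718.1 from 1780 to 1837. miR444 was placed on the minus strands of contig WXZB01054022.1 from 2145 to 2266 and contig WXZB01303742.1 from 419 to 474.

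None of the 5 sequences differed between the libraries in a two-sided exact binomial test with Benjamini-Hochberg adjustment over the 167 sequences with reads. At an adjusted p under 0.05 the test called 13.8% of all sequences, 23 of 167. Without adjustment, 0 of the 5 had a p under 0.05, against 40 of 167 sequences (24.0%). The share of miR528 was 0.985 times as high in library 1 as in library 2 (95% interval 0.895 to 1.08, exact test, adjusted p = 0.973). That of miR5179 was 1.06 times as high (0.934 to 1.21, exact test, adjusted p = 0.760). For the low sequences the intervals were wider. The ratio, with its interval and adjusted p from the exact test, was 0.749 for PC-3p-15195_98 (0.50 to 1.12, adjusted p = 0.467), 0.843 for miR1432 (0.468 to 1.53, adjusted p = 0.884) and 1.33 for miR444 (0.725 to 2.52, adjusted p = 0.770). Ratios within these intervals are not excluded by the reads. The test compares these 2 libraries by their reads and not conditions. It treats reads as independent, so several reads from 1 molecule would make its p-values too low and its intervals too narrow.

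Ranked by mean share, miR528 was 9th and miR5179 14th of the 43 families with reads, and miR1432 and miR444 were 34th and 35th. Above miR528 stood miR396 and miR162, and below it miR170/miR171 and miR168. miR528 lay under the first pair and over the second in both libraries, and its mean ± SD overlapped that of none of the 4. With a single line per sequence it instead exceeded miR162, at 1.56% and 1.55% against 1.18% and 1.39%. miR5179 lay below miR164 and miR169 and above miR482/miR2118 and miR5368 in both libraries, but its mean ± SD overlapped that of miR169 at 0.634% ± 0.046 (SD, n = 2). With a single line it lay below miR482/miR2118 too, at 0.451% and 0.416% against 0.659% and 0.611%. The fractional reads of miR5179 point to division between lines, for which the sum is the fitting value. miR444 and miR1432 overlapped each of their neighbours miR4995, miR6105, miR5072 and miR2603 that were within 2 ranks. Each exceeded any such neighbour in only 1 of the 2 libraries. In library 1, miR444 and miR2603 were tied at 32 reads, and miR1432 and miR5072 at 27. With a single line, miR1432 exceeded miR4995 and miR5072 in both libraries, and miR444 lay below miR6105 and miR5072 in both. Likeness here is one of level, since 2 libraries of 1 group give no pattern across conditions.

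**Figure D5:**
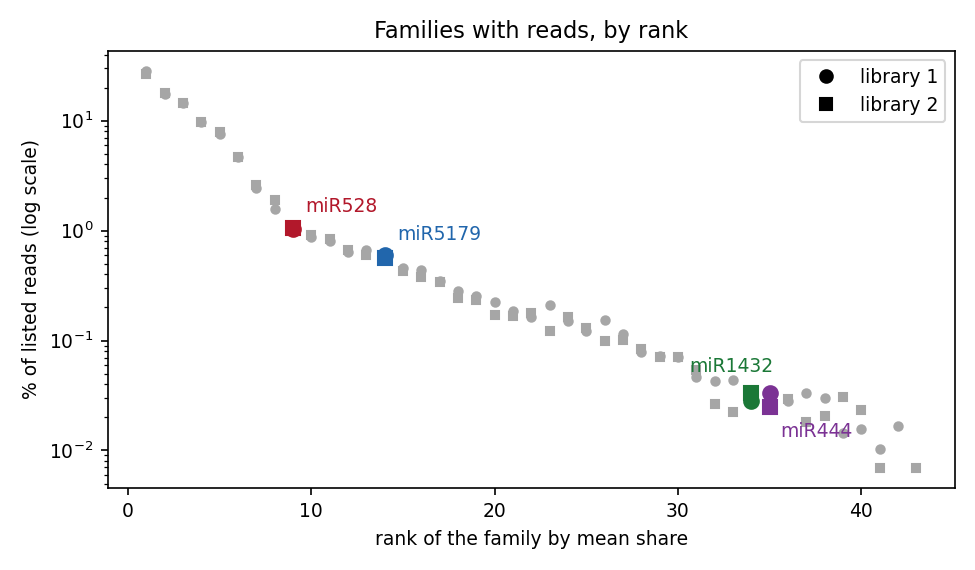
Percent of listed reads on a log scale for the families with reads, ranked by mean share, circles for library 1 and squares for library 2. A value of 0, found in 1 library for 2 of the 43 families, has no point. miR528 and miR5179 stand at ranks 9 and 14, and miR1432 and miR444 at ranks 34 and 35.

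Among families related by target or lineage, reads were uneven. Of 5 families that act on copper proteins, miR528 alone had reads in the entries used here, while miR397, miR398, miR408 and miR857 had none. The reads of miR528 were known before this list was set, and whether turmeric carries the other families was not tested. A list of 5 monocot-associated families held the 4 families described here and miR437, which had no reads. The 4 were picked for being in the table, so the count with reads is no separate result. Their summed share was 1.69% ± 0.016 (SD, n = 2). The families miR5179 and miR444, which act on MADS-box genes in other plants, together held 0.614% ± 0.031 (SD, n = 2), nearly all of it miR5179. The listed miR444 sequence has another seed than the registered form, and no target was tested for either in turmeric. No upper limit is given for families without reads, since no value above 0 in the table was below 2.5 reads, and a minimum may have been set for listing.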

How the data were processed

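Small RNA of 2 turmeric nanoparticle samples was extracted with a miRNeasy kit and sequenced from TruSeq small RNA libraries on an Illumina HiSeq, per the labels' protocols. CASAVA 1.8.4 and cutadapt 1.10 are named, without a role, in the submitters' processing notes. Reads were set against miRBase entries of selected species and the remainder was used to predict hairpins, per the file headers. No source used here names the aligner, the miRBase release or the assembly.

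The authors deposited an expected count of reads per line, a normalized signal and, as scores, each hairpin's free energy and its index. By the values the signal is the count times 0.508 in library 1 and 0.923 in library 2, so shares are the same on both. Of 278 lines, 12 are empty here and were not analysed here, and 2 value columns of no sample in this series were not used.

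Reads were summed over the lines of a sequence (at most 2). Shares are percent of listed reads with the SD over 2 libraries. Fractional reads were rounded for the exact binomial tests (scipy 1.17.1), which were tested on simulated data. Structures were taken from the table and refolded with RNAfold 2.7.2. A sequence was placed on a registered hairpin without gaps at the fewest mismatches. Families follow the number in the first name. Every member sequence with reads is named, with the families within 2 ranks of each family and the families of 3 lists by target or lineage. Members, lists and tests were chosen with earlier results of these data known. Alternatives were single lines, the normalized signal, other denominators, rounding, a minimum of 10 reads and single libraries.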

Additional observations from a re-analysis of the deposited data

How the results depend on the processing

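With a single line per sequence, the shares of miR528, miR5179, miR444, miR1432, PC-3p-15195_98 and all 5 were 1.55%, 0.434%, 0.0216%, 0.0453%, 0.0931% and 2.14%. The smaller sum of listed reads raises the sequences on 1 line, and those on 2 lines lose the value of a line. Without miR2916, a possible ribosomal RNA fragment, they were 1.27%, 0.712%, 0.0353%, 0.0373%, 0.0766% and 2.14%. Among registered names only, miR528, miR5179 and the 4 families together, without the predicted PC-3p-15195_98, stood at 1.11%, 0.620% and 1.79%. Both follow from a smaller denominator. The normalized column changed no share. Single libraries gave 1.04% to 1.06% for miR528, 0.568% to 0.603% for miR5179, 0.0249% to 0.0332% for miR444 and 0.0280% to 0.0332% for miR1432. They gave 0.0539% to 0.0720% for PC-3p-15195_98, 1.75% to 1.76% for all 5 and 5.19% to 6.82% for PC-3p-15195_98 as percent of miR528 reads. With 2 libraries such values lie within 1 SD of the mean by construction. Of the 6 pairs of families, 5 were ordered, and 6 with single lines. Without names that mark an unregistered arm or 2 substitutions, miR444 and miR1432 had no reads. None of the 5 differed between libraries with reads rounded down, single lines or at least 10 reads. Refolding with RNAfold, the stated hairpin lengths and leaving out a library for the arm percentage and the order of families were added after seeing the data, and 4 of 7 hairpin lines again met the criteria after refolding, against 3 by stated length. No paired analysis was possible because the samples form a single group.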

Other observations

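The disagreement in position between miR528 and PC-3p-15195_98 was seen elsewhere in the table. Hairpins of identical letters, listed on the same contig for a predicted and a named entry, gave 6 pairs on the minus strand, and the start differed in all 6, by 1 to 168 bases. Of the 5 such pairs on the plus strand, all had equal starts. The miR528 pair, at 86 bases, is 1 of the 6 on the minus strand. The cause was not tested, and the difference does not show which entry of a pair is misplaced. Positions of both predicted and named entries on the minus strand should be read with this in mind.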
